A study of Mus musculus with 15 samples.

Results

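The genes described here are 9 members of the TALE class of homeobox genes, Pbx2, Pbx3, Pbx4, Meis1, Meis2, Meis3, Pknox1, Pknox2 and Tgif1, taken by gene symbol from RNA-seq tables that list 26835 genes (Lhx6 experiment) and 25714 genes (Mtg8 experiment). All 9 had a row in both tables and passed the filter on low values in both. Pbx3 was chosen because of its difference between mutant and control cells in these libraries, so its values are given as a description with no test, and the other 8 were chosen as its relatives by name.

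The study asked which genes depend on LHX6, a LIM homeodomain factor of interneurons that arise in the medial ganglionic eminence (MGE), and on its cofactor MTG8, which is encoded by Runx1t1. Cells positive for YFP were collected by flow sorting from the cortices of individual embryos at embryonic day 14.5, on a mixed C57BL6/CBA background. The Lhx6 experiment compared 4 Lhx6+/+ controls with 5 Lhx6-/- littermates, and the Mtg8 experiment compared 3 Mtg8+/+ controls with 3 littermates labelled Mtg8-/-. All 4 groups carried the Nkx2-1-Cre transgene and 2 copies of the reporter allele (R26R-YFP fl/fl). Nkx2-1-Cre restricts YFP to cells with a history of Nkx2-1 expression, whereas both mutant alleles are germline alleles that every cell of the embryo carried. Each embryo gave 1 library, and males and females were used without the sex being given per library.

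PBX proteins bind DNA poorly alone and act with partners, which include HOX proteins and the MEIS and PKNOX proteins of the same TALE class. MEIS and PKNOX proteins bind PBX through a domain outside the homeodomain, help to keep it in the nucleus, and recognise a TGACAG core by themselves. TGIF1 recognises a similar core and acts mainly as a repressor that recruits corepressors and binds SMAD proteins.

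The coding sequence shows where these proteins part ways. The stretches below are the 30 bases that encode part of the helix that contacts DNA, read 5′ to 3′ on the coding strand from GENCODE M21 transcripts (GRCm38), and the capitals mark the third codon, at which PBX genes differ from the other TALE genes shown.
Pbx2: tggttcGGTaacaagcgaattcgctacaag
Pbx3: tggtttGGCaacaaacgaatcaggtacaag
Pbx4: tggtttGGCaacaaaagaatccggtacaaa
Meis1: tggtttATTaatgcccggagaagaatagtg
Meis2: tggtttATCaatgccagaagaagaatagtg
Meis3: tggtttATTaatgcccggagacgaatagtg
Pknox1: tggttcATCaacgcgagaagacgaattctc
Pknox2: tggttcATCaatgccaggaggcgcatcctg
Tgif1: tggttcATCaacgcccgccgcaggctcctt

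The third codon was GGT or GGC in the 3 Pbx genes and ATT or ATC in the other 6. Pbx4 shared 27 of the 30 bases with Pbx3 and Pbx2 shared 24, while the remaining members shared between 13 (Meis3, Pknox1 and Pknox2) and 16 (Tgif1). In all 3 Pbx genes the stretch lay within coding exon sequence of exon 6, at chr2:34178304-34178333 (minus strand) in Pbx3, chr17:34594810-34594839 (plus strand) in Pbx2 and chr8:69870038-69870067 (plus strand) in Pbx4. In Tgif1 it lay in exon 3 at chr17:70845234-70845263 (minus strand). It crossed an exon junction in the MEIS and PKNOX genes, between exons 9 and 10 of Meis1 (chr11:18885624-18905690, minus strand), Meis2 (chr2:115868776-115921673, minus strand), Meis3 (chr7:16183866-16184065, plus strand) and Pknox2 (chr9:36894471-36895312, minus strand), and between exons 8 and 9 of Pknox1 (chr17:31602861-31603214, plus strand).

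Values are normalized counts, that is, reads per gene divided by a size factor for each library. The reads per library recovered from them ranged from 12218422 to 18110287 in the Lhx6 table and from 16139978 to 22053032 in the Mtg8 table. Because the tables were normalized separately, no test was made across them. The targeted gene Lhx6 fell from 7247 ± 1093 (SD, n = 4) in controls to 331 ± 99.7 (n = 5) in Lhx6 mutants. Runx1t1 was not lower in the libraries labelled Mtg8 mutant, at 8891 ± 1219 in controls and 12845 ± 944 in labelled mutants (n = 3 each). The position of the mutation relative to the reads was not examined, so this gene does not check those labels and they are called labelled mutants throughout. Sst, which encodes the neuropeptide somatostatin of MGE-derived interneurons, had 17164, 14421 and 18501 in Mtg8 controls 1, 2 and 4 and 5683, 8048 and 6115 in labelled mutants 2, 3 and 4. Every labelled mutant was below every control, with a log2 difference of -1.34 (mutant minus control) and an adjusted p of 0.0713 by limma, 0.109 by edgeR and 1.12e-05 by DESeq2. Sst is an outcome of the comparison and was not used to judge the labels. In the Lhx6 table the 4 controls and mutant 6 have library names without a date and the other 4 mutants have dated names; in the Mtg8 table controls 1 and 2 and mutant 2 have dated names. What this difference in naming stands for is not given in the sources used here.

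Pbx3 had the lowest mean level per kb of exon of the 9 genes in Lhx6 control cells and the highest in Lhx6 mutant cells, with ranges that overlapped those of Meis1 and Meis3, respectively. Its normalized counts were 45.2, 93.9, 62.6 and 59.9 in controls 1 to 4. In mutants 1, 2, 3, 5 and 6 they were 2579, 2004, 2226, 1950 and 1321. Every mutant library was above every control library, and the lowest mutant was mutant 6, whose library name is of the same style as those of the controls. The means were 65.4 ± 20.5 (SD, n = 4) and 2016 ± 460 (n = 5), a ratio of 30.8, and the log2 difference, taken throughout as mutant minus control on log2(normalized count + 1), was 4.94. This log2 difference ranked 4 from the highest among the 16727 genes tested. Between mutant 6 and the 4 controls, all with undated names, it was 4.36.

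In the Mtg8 table Pbx3 had counts of 38.0, 55.5 and 44.0 in controls 1, 2 and 4. The labelled mutants 2, 3 and 4 had 131, 96.5 and 147. The groups again did not overlap, with means of 45.8 ± 8.86 and 125 ± 25.8 (n = 3 each), a ratio of 2.73 and a log2 difference of 1.42. Within libraries with dated names the log2 difference was 1.5, and within those with undated names it was 1.41. The Pbx3 level in labelled Mtg8 mutants thus stayed among the lower members, whereas in Lhx6 mutants it did not, but whether the 2 experiments differ was not tested. In these sorted bulk samples a change in the share of cells that express a gene and a change in its RNA per cell cannot be told apart.

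**Figure D1:**
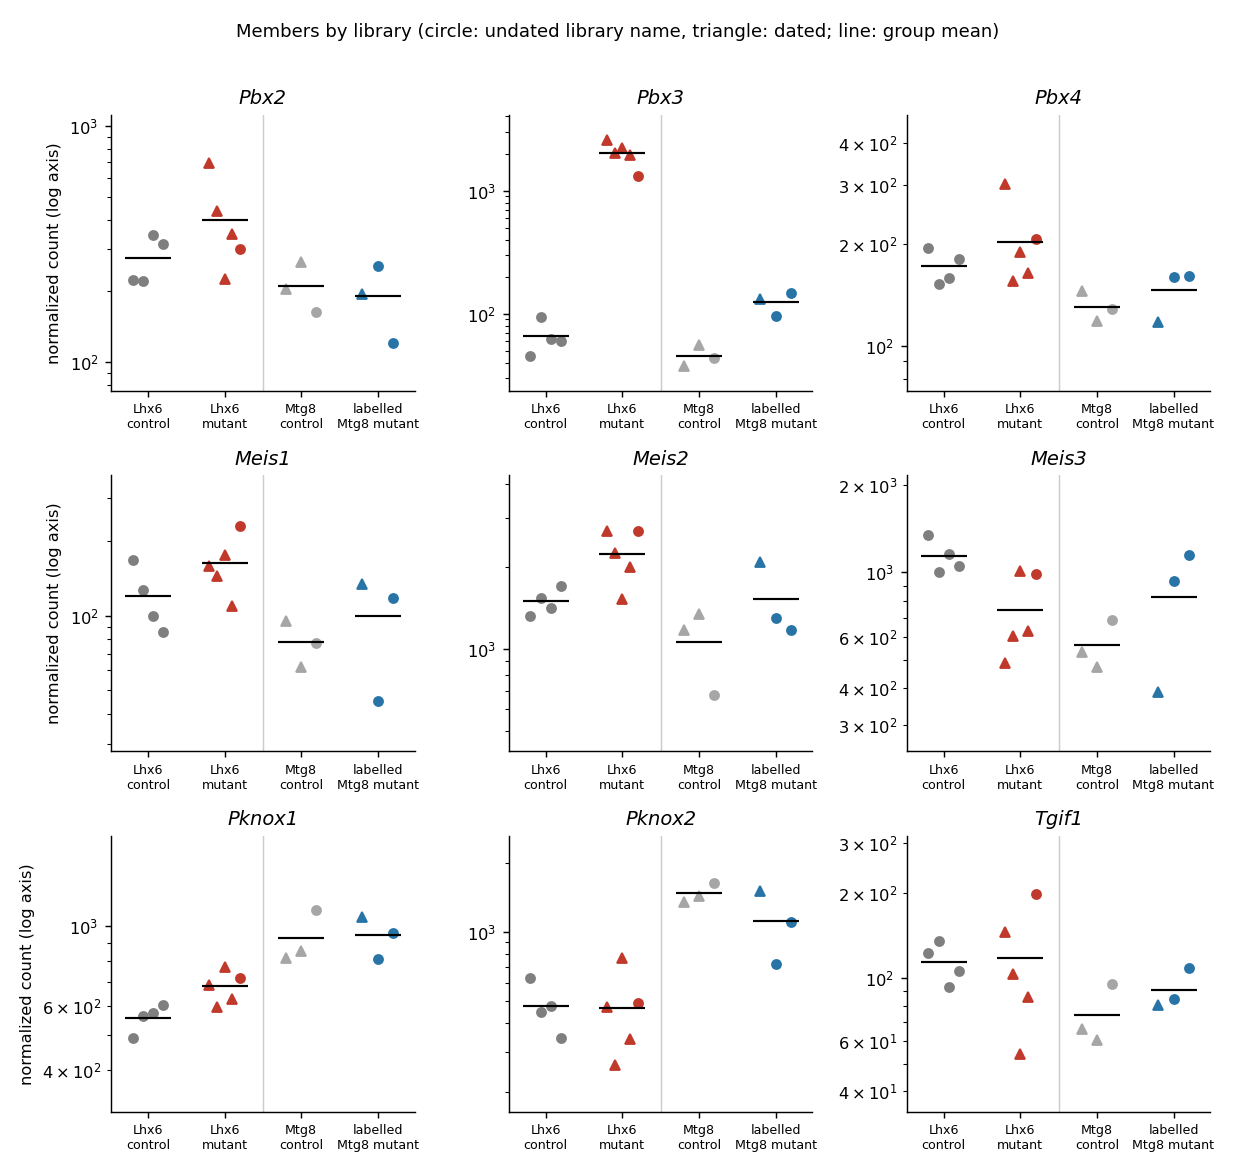
Normalized count (log axis, a separate scale for each gene) of the 9 genes in each of the 15 libraries, by group, with the group mean as a line; circles are libraries with undated names and triangles those with dated names, and the vertical line separates the tables, which were normalized separately. Pbx3 is the member whose groups do not overlap in either table, with mutants between 1321 and 2579 against controls between 45.2 and 93.9 in the Lhx6 table.

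Levels of different genes were compared per kb of summed exon length. In Lhx6 controls Meis3 was highest at 359 ± 47.8 normalized counts per kb (SD, n = 4), followed by Meis2 at 124 ± 13.9, and the ranges of these genes overlapped neither each other nor the next gene. Pknox1 (80.5 ± 6.96), Pbx4 (77.5 ± 8.98) and Pbx2 (75.9 ± 17.8) followed with overlapping ranges, and that of Pknox2 (45.9 ± 11.4) overlapped that of Pbx2. Tgif1 (20.3 ± 3.33) was separate from its neighbours on either side. Meis1 (11.4 ± 3.46) and Pbx3 (10.7 ± 3.36) were lowest and overlapped. Pbx3 stood at the percentile 16.9 of the tested genes on this scale in Lhx6 controls.

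The order in Mtg8 controls had the same genes at its ends. Meis3 was first at 178 ± 34.6 per kb (n = 3), with a range that overlapped that of Pknox2 (143 ± 14.4), which in turn overlapped that of Pknox1 (133 ± 23.1). Pbx3 (7.50 ± 1.45) and Meis1 (7.41 ± 1.58) were again lowest, with overlapping ranges. Pknox2 was the sixth gene per kb in Lhx6 controls and the second in Mtg8 controls, a difference in rank that was not tested.

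In Lhx6 mutants Pbx3 came first, at 330 ± 75.4 per kb (n = 5), and its range overlapped that of Meis3 (234 ± 75.0). Meis2 followed at 185 ± 41.1 and Pbx2 at 110 ± 50.1. The ratio of Pbx3 to Pbx2 per kb had a median of 0.117 (0.108 to 0.255) over the Lhx6 controls and 2.73 (2.21 to 5.91) over the mutants, so Pbx3 was below Pbx2 in every control and above it in every mutant. The ratio of Pbx3 to Pbx4 went from a median of 0.132 to 4.27. In the Mtg8 table Pbx3 stayed below Pbx2 in every library, with a median ratio of 0.125 (0.111 to 0.161) in controls and 0.402 (0.227 to 0.724) in labelled mutants.

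**Figure D2:**
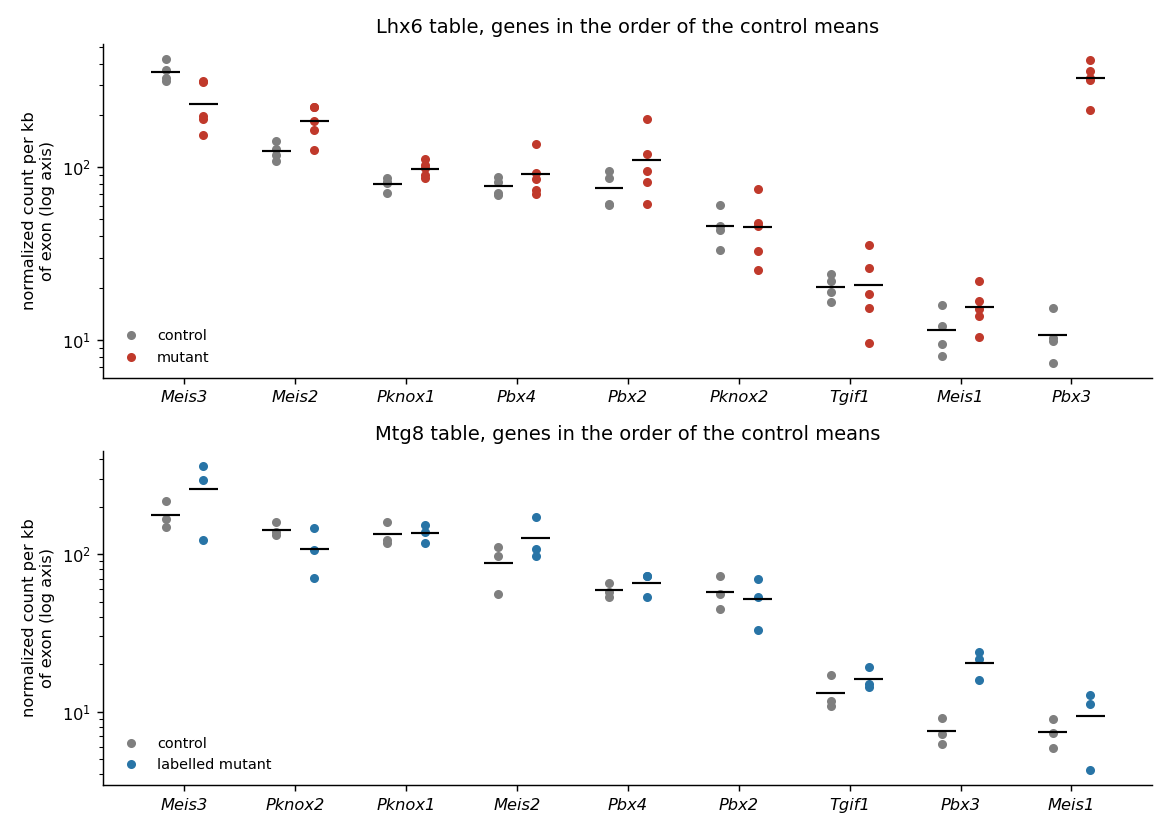
Normalized count per kb of summed exon length (log axis) for each library, with group means as lines and the genes ordered by the control mean of their table; controls are in grey, Lhx6 mutants in red and labelled Mtg8 mutants in blue. Pbx3 is at the low end in both sets of controls and reaches a mean of 330 per kb in Lhx6 mutants against 20.4 in labelled Mtg8 mutants.

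None of the 8 relatives of Pbx3 passed the test in the Lhx6 experiment (limma, adjusted p under 0.05 over all 16727 genes, at which 1.71% of genes were called). Pbx3 made the count 1 of 9 and was chosen for this difference, so nothing is read from that count. Among all genes 1.03% were called higher and 0.682% lower. By edgeR, which called 1.67% of all genes, also 0 of the 8 were called, and by DESeq2, which called 4.53% of all genes, 1 of the 8, which was Meis2. Before adjustment 2 of the 8, Meis2 and Meis3, had p under 0.05, against 12.7% of all genes. The groups of all 8 relatives overlapped, while 6.22% of all genes had groups that did not (3.19% with mutants above and 3.03% with mutants below). The median log2 difference of the 8 was 0.25, beside -0.04 over all genes tested. Their 95% intervals reached up to 1.10 (Pbx2) and down to -1.14 (Meis3).

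Among the MEIS genes, Meis2 pointed higher and Meis3 lower in Lhx6 mutants. Meis2, which is widely used as a marker of the lateral ganglionic eminence (LGE) and of striatal neurons, had counts of 1316, 1535, 1412 and 1703 in controls 1 to 4. In mutants 1, 2, 3, 5 and 6 it had 2693, 2242, 1527, 1994 and 2695. Of the 5 mutants 4 were above every control, and mutant 3 lay among the controls. The log2 difference was 0.56 (SE 0.17, 95% interval 0.18 to 0.93), with an adjusted p of 0.171 by limma. Without mutant 3 it was 0.68 with an adjusted p of 0.0306, and by DESeq2 on all libraries it was 0.58 with an adjusted p of 0.0472, while over all 17 alternatives the adjusted p ranged from 0.0306 to 0.537.

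Markers of the LGE and of striatal projection neurons pointed higher in Lhx6 mutants for 8 of 9 tested genes, without passing the test. The summed normalized count of all 12 genes of this list, tested or not, was 895 to 1236 in Lhx6 controls and 1473 to 2838 in mutants, with no overlap. Most of this sum was Foxp1 and Foxp2, and Isl1 ran from 16.1 to 962 over the mutant libraries, so the sum does not describe the whole list. None of the 9 tested genes was called by limma (1.71% of all genes) or edgeR (1.67%), and DESeq2 (4.53%) called 2, Foxp1 and Foxp2. Gsx2, Zfp503 and Drd1 had control means under the filter and were tested because the mutants were higher, so no support is drawn from the count that pointed higher. The median log2 difference of the 9 tested genes was 0.73. It includes Gsx2, Zfp503 and Drd1, so no support is drawn from it either. Tac1 pointed lower (log2 difference -3.71, adjusted p of 0.176 by limma), and Penk (0.03) and Ebf1 (0.18) were near 0. Foxp1 had 625 ± 118 in controls and 1011 ± 163 in mutants with an adjusted p of 0.0685, and Foxp2 had 200 ± 22.2 in controls and 340 ± 80.0 in mutants with an adjusted p of 0.125 by limma. The part of these genes in the Meis2 values was not tested.

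Meis3 had counts of 1346, 1004, 1161 and 1052 in Lhx6 controls 1 to 4. The mutants 1, 2, 3, 5 and 6 had 490, 603, 1009, 628 and 987. Mutants 1, 2, 5 and 6 were below every control and mutant 3 was not. The log2 difference was -0.67 (SE 0.22, 95% interval -1.14 to -0.19), with an adjusted p of 0.194 by limma. Meis3 also differed with the style of the library name. Between mutant 6 and the 4 controls, which share a style, the log2 difference was -0.20, and in the Mtg8 table the 3 libraries with dated names had 534, 472 and 390 against 686, 935 and 1145 in the 3 with undated names. The part of the naming style in the Meis3 values was not tested, and for the 4 dated Lhx6 mutants it cannot be told apart from the genotype.

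Meis1 was scarce and variable. Its counts ran from 85.5 to 168 in Lhx6 controls and from 109 to 232 in mutants, with a log2 difference of 0.45 (SE 0.27) and an adjusted p of 0.518 by limma. An exon of Meis1 overlaps that of Gm37818 on the same strand, so reads there cannot be assigned with certainty.

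Of the PKNOX genes, Pknox1 had the tightest replicates of the 9 in the Lhx6 table, with 491, 563, 574 and 605 in Lhx6 controls and 688, 598, 772, 628 and 721 in mutants 1, 2, 3, 5 and 6. Mutant 2 was the one mutant below the highest control. The log2 difference of 0.28 (SE 0.14, 95% interval -0.03 to 0.60) had an adjusted p of 0.437 by limma. An exon of Pknox1 overlaps that of AC166172.1 on the other strand, and whether reads were counted by strand is not given in the sources used here. Pknox2 ranged from 345 to 630 in controls and from 262 to 770 in mutants, so that the mutants covered the whole range of the controls. Its log2 difference was -0.09 (95% interval -0.70 to 0.53), and its direction changed in several alternatives.

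The other PBX genes described here did not pass the test either. Pbx2 had 222, 220, 345 and 317 in Lhx6 controls and 697, 437, 224, 348 and 300 in mutants 1, 2, 3, 5 and 6. Mutant 1 stood highest and mutant 3 lay near the bottom of the control range, with a log2 difference of 0.46 (SE 0.29, 95% interval -0.18 to 1.10) and an adjusted p of 0.539 by limma. Pbx2 shares exon sequence with Gpsm3 on the same strand. Pbx4 ranged from 152 to 195 in controls and from 155 to 302 in mutants, with a log2 difference of 0.21 (95% interval -0.28 to 0.70) and an adjusted p of 0.712. Tgif1, the repressor of the group, ranged from 93.0 to 136 in controls and from 54.0 to 199 in mutants. Its log2 difference was -0.08 (95% interval -0.82 to 0.66) by limma, 0.03 by edgeR and 0.04 by DESeq2.

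**Figure D3:**
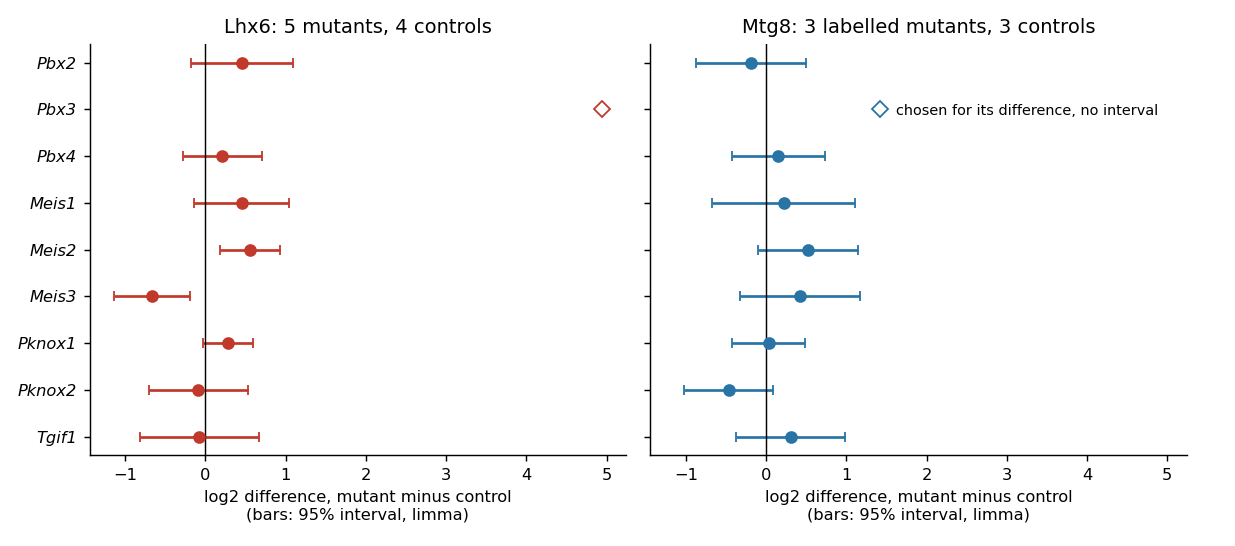
Log2 difference, mutant minus control on log2(normalized count + 1), of each gene in the Lhx6 (red) and Mtg8 (blue) experiments, with 95% intervals from limma as bars for the 8 relatives; Pbx3, chosen for its difference, is an open diamond with no interval. Pbx3 lies at 4.94 in the Lhx6 experiment and at 1.42 in the Mtg8 experiment, and the points of the relatives lie between -0.67 and 0.56 in both.

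In the Mtg8 experiment limma called 0 of the 8 relatives of Pbx3 and 0 of all 16132 genes tested (0%). Before adjustment 886 genes, or 5.49%, had p under 0.05, while edgeR called 1 gene of the table (0.0062%) and DESeq2 called 30 (0.152%), none of them one of the 8 relatives. The groups of all 8 relatives overlapped, while 10.2% of all genes had groups that did not (4.68% with labelled mutants above and 5.52% with them below). Pbx3, whose labelled mutants were all above its controls, was chosen for its difference, so nothing is read from that. The median log2 difference of the other 8 was 0.19, beside -0.01 over all genes.

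Meis2 in the Mtg8 table had 1174, 1338 and 675 in controls 1, 2 and 4 and 2086, 1293 and 1168 in labelled mutants 2, 3 and 4. Mutant 2 was above every control and mutants 3 and 4 lay within the control range. The log2 difference was 0.52 (SE 0.29, 95% interval -0.10 to 1.15) with an adjusted p of 0.861 by limma, and it was 0.73 within libraries with dated names and 0.86 within those with undated names. Single libraries moved it both ways, to 0.23 without control 4 and 0.27 without mutant 2, but to 0.62 without control 1 and 0.72 without control 2. Meis3 had a log2 difference of 0.42 (SE 0.35, adjusted p of 0.886 by limma) over all libraries, with -0.37 within dated and 0.59 within undated names and 0.11 to 0.89 with single libraries left out.

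Pknox2 had 1358, 1432 and 1644 in the controls of the Mtg8 table and 1513, 727 and 1102 in labelled mutants 2, 3 and 4. Mutant 2 lay within the control range and the other 2 were below it, so the log2 difference of -0.47 (95% interval -1.02 to 0.09, adjusted p of 0.859 by limma) was 0.12 within dated and -0.88 within undated names, and ran from -0.72 to -0.19 with single libraries left out. The log2 differences of Pknox1 (0.03), Pbx2 (-0.18), Pbx4 (0.15), Meis1 (0.22) and Tgif1 (0.31) all had 95% intervals that included 0. These intervals reached from -0.87 (Pbx2) to 1.10 (Meis1), so changes of up to about that size were not excluded by 3 libraries a group.

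In the Mtg8 experiment no gene of the cell-type marker lists was called by limma (0% of all genes) or edgeR (0.0062%). DESeq2, which called 0.152% of all genes, called 4 genes of these lists, Sst, Neurod2, Emx1 and Sp8. Whether the lists as a whole differ between the groups was not tested. Sp8, a marker of interneurons from the caudal ganglionic eminence, had 83.5 ± 27.8 in controls and 225 ± 45.8 in labelled mutants, with no overlap and an adjusted p of 0.636 by limma and 0.0292 by DESeq2. The 8 tested markers of that list summed to 2866 to 3478 in controls and 3205 to 3679 in labelled mutants, which overlap, and 6 pointed higher. Markers of MGE-derived interneurons summed to 74743 to 80308 in controls and 47497 to 64840 in labelled mutants, with no overlap, and 2 of the 13 pointed higher. Much of the difference in this sum lay in Sst (16695 and 6615) and Dlx1 (19365 ± 1074 and 12630 ± 4433), so it is not spread evenly over the list. The 10 pyramidal lineage markers all pointed higher in labelled mutants, with a median log2 difference of 0.60 and summed counts of 5657 to 13532 in controls and 8769 to 21875 in labelled mutants, which overlap. The 9 tested markers of radial glia and glia also all pointed higher, with a median of 0.89 and sums of 4302 to 6237 and 6705 to 10457. Olig2, which is among them, had a mean of 3.96 in controls and 17.7 in labelled mutants. It was tested only because the labelled mutants were higher, so no support is drawn from this count or median. The part of all these markers in the values of the 9 genes was not tested.

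In the Lhx6 table no pyramidal or glial marker was called by limma (1.71% of all genes), edgeR (1.67%) or DESeq2 (4.53%). With lists this short, nothing is read from these counts. The summed pyramidal markers were 15825 to 21298 in controls and 12695 to 17722 in mutants, with Neurod6 alone at 9961 ± 2054 in controls, so the sorted cells of both groups held RNA typical of pyramidal neurons. Sums for radial glia and glia were 7034 to 9035 and 6345 to 12566. Markers of microglia (at most 217), endothelium and pericytes (at most 252) were low, and haemoglobin genes, which mark erythroid cells, varied from 5966 to 58615 in controls and from 1798 to 20401 in mutants. Among the markers of MGE-derived interneurons Dlx5 and Dlx6 rose, and Lhx6 and Sst (log2 difference -3.06) fell. Of 8 markers of interneurons from the caudal ganglionic eminence 0 rose and 2 fell, Npas1 from 484 ± 179 to 120 ± 44.1 and Htr3a from 222 ± 22.1 to 78.8 ± 39.3, beside 1.03% and 0.682% of all genes, although Htr3a had an adjusted p of 0.0612 by edgeR. The 3 that pointed higher did not pass the test by limma, while DESeq2 (4.53% of all genes) called Nr2f2 and Sp8 higher and, besides Npas1 and Htr3a, Cck lower (434 to 464 in controls and 194 to 381 in mutants, adjusted p of 0.0118 by DESeq2 and 0.0781 by limma). The values of the 3 were Nr2f2 (721 in controls and 1361 in mutants, adjusted p of 0.0676 by limma), Sp8 (206 and 495, 0.291) and Nr2f1 (1510 and 2443, 0.363).

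Of the other TALE genes, Mkx, a homeobox gene best known from tendon, fell in Lhx6 mutants. It had 197, 153, 184 and 95.8 in controls 1 to 4 and 14.8, 0, 0, 0.969 and 1.24 in mutants 1, 2, 3, 5 and 6. Every mutant was below every control, with an adjusted p of 0.000979 by limma. Its mean was under the filter in the mutants (3.41), so it was tested only because the controls were high, and no support is drawn from its call. In the Mtg8 table Mkx had 176 ± 49.6 in controls and 136 ± 24.0 in labelled mutants (adjusted p of 0.893). Tgif2, the closest relative of Tgif1, had 31.6 to 56.7 in Lhx6 controls and 2.47 to 29.8 in mutants, with groups that did not overlap, a log2 difference of -1.46 (SE 0.60) and an adjusted p of 0.332. The 6 Irx genes of the list were under the filter or not analysed here. Of the 2 genes of this list that were tested in each experiment, 0 rose and 1, Mkx, fell with the Lhx6 mutation (beside 1.03% and 0.682% of all genes) and none was called for Mtg8 (0% of all genes), so nothing is read from these counts.

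HOX genes, the classical partners of PBX proteins, could not be tested. The 1 HOX cluster gene with a row, Hoxd13 in the Lhx6 table, had at most 6.19 normalized counts in any library and was not tested. Among other partners and cofactors, 2 of 20 tested in the Lhx6 experiment rose and 0 fell, beside 1.03% and 0.682% of all genes. The median log2 difference of the 20 was 0.12. The 2 that rose are also in the list of markers of MGE-derived interneurons, and nothing is read from this count. Both that rose are Dlx homeobox genes of the ventral forebrain: Dlx5 went from 2132 ± 161 to 4358 ± 600 and Dlx6 from 657 ± 83.8 to 2146 ± 625, with no overlap between groups and adjusted p of 0.000719 and 0.000979 by limma. DESeq2 also called Crebbp, a coactivator, higher (adjusted p of 0.0423, against 0.133 by limma). In the Mtg8 table none of 19 was called by limma, edgeR or DESeq2 and the median was -0.01.

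The genes whose values were most like those of Pbx3 over the 9 Lhx6 libraries, by Pearson r of log2(normalized count + 1), were Ntm (0.987), an adhesion molecule of the IgLON family, Slc1a2 (0.986), a glutamate transporter, Cxcl14 (0.984), a chemokine, Gabrg3 (0.980), a GABA-A receptor subunit, and Vax1 (0.980), a homeobox gene of the ventral forebrain. The libraries fall into 2 groups by genotype, so these r mostly describe the difference between the groups. All 5 had higher means in Lhx6 mutants, with log2 differences from 2.43 (Ntm) to 4.60 (Cxcl14). Over the 6 Mtg8 libraries the r of the same genes with Pbx3 ran from -0.42 (Cxcl14) to 0.36 (Vax1). Among the members, r with Pbx3 over the Lhx6 libraries was highest for Pknox1 (0.763) and Meis2 (0.733) and lowest for Meis3 (-0.764), and over the Mtg8 libraries it was 0.205, 0.575 and 0.323.

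Pbx3 lies on the same chromosome as the mutated gene. It spans chr2:34171457-34373142 on the minus strand (GRCm38), and its lower coordinate is 1.91 Mb from that of Lhx6 (chr2:36081953-36105408). Meis2 is also on chromosome 2, 79.8 Mb from Lhx6, and the other members are on chromosomes 7, 8, 9, 11 and 17. Within 3 Mb of Lhx6 and without Pbx3, 4 of 61 genes tested in the Lhx6 experiment were called (6.56%, beside 1.71% of all genes). C79798, 1 of these 4, was tested only because the mutants were high, with a mean of 0.24 in controls and 22.7 in mutants, so its call and its place in this share are a description and no support. The median log2 difference of the window with Pbx3 was 0.00. The other 3 were Mvb12b and 5730507A11Rik, which rose, and Gm13429, which fell. Groups did not overlap for 5 of the 61 (8.2%, beside 6.22% of all genes). In the Mtg8 table limma called none of 56 such genes, as it called none of all genes (0%), so nothing is read from that count. Groups there did not overlap for 11 of the 56 (19.6%, beside 10.2% of all genes), with labelled mutants above for 5 and below for 6.

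C79798, a long noncoding RNA on the plus strand, lies inside the span of Pbx3 at chr2:34287771-34304440. It had 1 read in total over the 4 Lhx6 controls and 10 to 29 reads in each mutant. Its reads cannot be told apart from unspliced Pbx3 RNA if they were counted without strand. Mvb12b, which encodes a subunit of the ESCRT machinery, lies 0.44 Mb to the other side at chr2:33729953-33887946 and had 476, 339, 606 and 415 in controls and 1584, 1098, 854, 973 and 666 in mutants 1, 2, 3, 5 and 6. Every mutant was above every control, with a log2 difference of 1.14 (SE 0.24) and an adjusted p of 0.0301 by limma. Nron, a noncoding RNA inside the span of Mvb12b on the opposite strand, was noticed after the values were seen, with 5.62 ± 5.51 in controls and 32.6 ± 16.5 in mutants, a log2 difference of 2.61 and an adjusted p of 0.0959. It too had a control mean under the filter. Mapkap1, the gene 0.24 Mb above Pbx3, had 908 ± 66.8 and 844 ± 271 with a log2 difference of -0.16 and an adjusted p of 0.761.

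**Figure D4:**
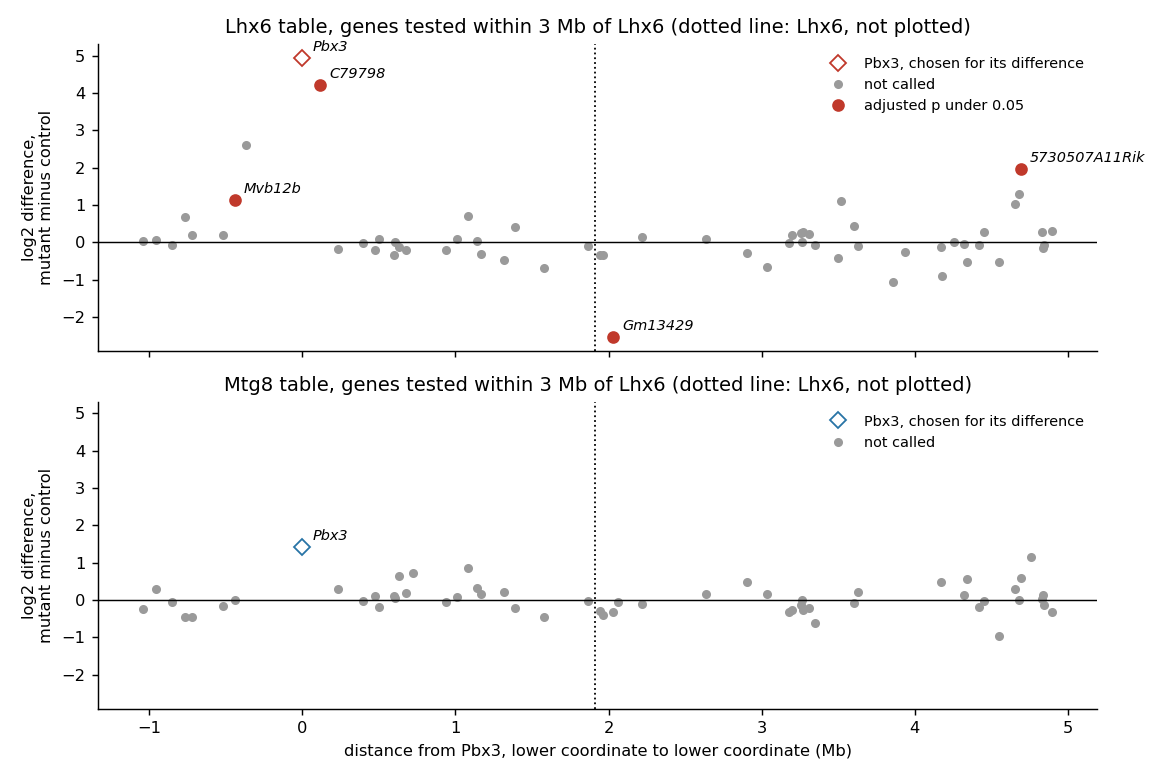
Log2 difference, mutant minus control on log2(normalized count + 1), of each gene tested within 3 Mb of Lhx6 against its distance in Mb from Pbx3, measured between lower coordinates, in the Lhx6 table (top) and the Mtg8 table (bottom); coloured points had an adjusted p under 0.05, the open diamond is Pbx3, and the dotted line is the place of Lhx6, which is not plotted. In the Lhx6 table C79798 (4.21) lies 0.12 Mb above Pbx3 (4.94) and Mvb12b (1.14) lies 0.44 Mb below it.

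The windows from 250 bases before to 50 bases after annotated gene starts were searched on both strands for TGACAG (the core bound by MEIS, PKNOX and TGIF proteins), TGATTGAT (bound by PBX with HOX) and TAATTA (bound by many homeodomains). RefSeq windows (GRCm38.p6) were at hand for Meis1, Meis2, Meis3, Pbx2, Pbx4 and Tgif1, 10 windows in all, and the Pbx3 promoter was not analysed here. Only TGACAG was found, in 2 of the 5 Tgif1 windows. It is present in 19.2% of all 32851 windows of 300 bases, against 0.746% for TGATTGAT and 5.29% for TAATTA. Such matches are a description of the letters in these windows.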

How the data were processed

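YFP+ cells were sorted from single E14.5 cortices, and cDNA was made with a low-input kit and sequenced on a NextSeq 500. The authors used fastp 0.20.1 for trimming, STAR 2.7b for alignment and featureCounts 1.6.4 for counting, then removed sex-linked genes by GENCODE M23 (GRCm38.p6) and normalized each experiment separately with DESeq2; the annotation used for counting is not given in the sources used here. The deposited values are a normalized signal: counts per gene divided by the size factor of the library. Division by the smallest step gave whole reads for 100% of values (tolerance 0.01). The deposited comparison columns (fold changes and p-values) were not used.

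Each experiment was fitted separately with limma 3.58.1 (R 4.3.3; two-sided, mean-variance trend) on log2(normalized count + 1), over genes with a mean of at least 10, with Benjamini-Hochberg adjustment over all genes tested and a threshold of 0.05. Adjusted p-values in the text are limma's unless another tool is named. Alternatives were pseudocounts of 0.5 and 10, no filter, TMM factors, count tests of the recovered reads (edgeR 4.0.16, DESeq2 1.42.0), a replicate block, a term for the naming style of libraries, and each library left out in turn. The scripts were tested on simulated data. Lengths are summed exon lengths from the files, and sequences come from GENCODE M21, whose spans of the members equal those in the files.

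The members and lists were chosen with earlier results of these data known. Named genes were all members, the targeted genes, the called genes of each list (or up to 2 with the highest mean), the 5 genes most like Pbx3 and the called neighbours of Lhx6. Other genes of the PBX class and some listed markers are not reported here. The p-values measure the spread between embryos, some of which share a code in the library name.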

Additional observations from a re-analysis of the deposited data

How the results depend on the processing

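Of the 9 genes, Pbx3 was called in the Lhx6 experiment under every alternative. It was chosen for this difference, so nothing is read from those calls. Of its 8 relatives, 0 were called except by DESeq2 and without Lhx6 mutant 3, and in each case the gene was Meis2. With Pbx3 counted, leaving out single libraries gave 1 to 2 calls. In the Mtg8 experiment 0 of the 9 genes were called except by DESeq2 (1, Pbx3, which was chosen for this difference), and leaving out single libraries gave 0 to 0. The cause of these differences was not tested. The log2 difference of Pbx3 stayed between 4.36 and 5.13 in the Lhx6 table and between 1.30 and 1.6 in the Mtg8 table with the name style as a covariate, the replicate block, TMM factors, edgeR, DESeq2 or single libraries left out. Over all genes the calls were 286 in the Lhx6 table against 811 by DESeq2, 86 with the replicate block, 57 with the name style and 159 to 492 with single libraries left out (492 without mutant 6); in the Mtg8 table they were 0 against 30, 100, 0 and 0 to 87 (87 without mutant 2).

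Small differences changed sign. In the Lhx6 table Tgif1 was 0.0328 by edgeR, 0.0363 by DESeq2, 0.81 with the name style and -0.30 to 0.16 with single libraries left out, and Pknox2 was 0.0799 with the name style and -0.29 to 0.0947. In the Mtg8 table the range with single libraries left out was -0.0561 to 0.17 for Pknox1, -0.0752 to 0.71 for Meis1 and -0.43 to 0.11 for Pbx2. The cause was not tested.

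Replicate numbers are not stated to pair embryos. Same-numbered deviations correlated at -0.15, 0.00175 and 0.07 in the Lhx6 table and at 0.14 and 0.16 in the Mtg8 table. The means over differently numbered pairs were 0.00444 and -0.0428. In the Mtg8 table the control and labelled mutant numbered 2 were each other's closest match, as were those numbered 4. No same-numbered pair of the Lhx6 table was. With the replicate block the members called were 1 (Pbx3, chosen for its difference) and 0. Depth limits the rarest members most: Pbx3 rests on 291 reads over the 4 Lhx6 controls and 131 over the 3 Mtg8 controls.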
